A study of Homo sapiens with 6 samples.

Results

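Clone C1 of H358, an established human lung cancer cell line, was compared with the parental cells using the 2 RNA sequencing libraries of each, 4 of the 6 libraries in the series. The parental line (WT) has wild-type BRMS1. C1 is labelled an isogenic clone with BRMS1v2 A273V/A273V. The BRMS1 protein, known as a suppressor of metastasis, works with the SIN3 and HDAC co-repressors. Both lines grew in RPMI with serum. C1 is 1 clone, so a trait of the clone and an effect of the variant cannot be told apart here, and how the clone was made is not given in the sources used here. Libraries carry the replicate numbers 1 and 2, and same-numbered libraries were kept as pairs. Nothing in the labels says what the number marks or whether replicates were separate cultures, so the spread behind each p-value may be technical. The 2 libraries of C2, the other clone with the same listed genotype, entered the model for its estimate of spread.

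Cells answer stress with a handful of well-known transcription programmes. Unfolded protein in the endoplasmic reticulum (ER) activates ATF6, IRE1 and PERK, and PERK and other kinases raise ATF4, which turns on amino acid supply. Oxidants release NRF2 onto antioxidant genes, unfolded cytosolic protein releases HSF1 onto chaperone genes, low oxygen stabilises HIF1A, and starvation frees FOXO factors. Viral nucleic acid or interferon drives a large set of antiviral genes, and cytokines drive NF-kappaB.

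Gene counts came to 30735129 and 27527867 in the WT libraries and 37146270 and 29857754 in C1, where 3 counts correspond to 0.0848 to 0.101 CPM (counts scaled to library size). BRMS1 stood at 42.9 and 34.7 CPM in WT and at 26.9 and 30.0 CPM in C1, with a log2 difference of -0.44 (SE 0.18, adjusted p = 0.17 by edgeR) that did not pass the test, and gene counts do not show the allele. The 11 epithelial markers summed to between 6451 and 8867 CPM and NKX2-1 to between 65.1 and 155 CPM, while the surfactant genes SFTPB and SFTPC had at most 1 count in any library and SCGB1A1 had 0. Immune cell markers summed to between 2.80 and 5.05 CPM over 4 tested genes. In bulk RNA, fewer cells of a type and less RNA per cell cannot be told apart.

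The replicate numbers parted the libraries in the cell cycle. The 30 genes of the G2/M and mitosis list summed to 4472 CPM in WT replicate 1, 2073 in WT replicate 2, 5002 in C1 replicate 1 and 411 in C1 replicate 2. C1 replicate 2 therefore stood apart from the other 3 libraries. Within number 1 the list's median log2 difference of C1 from WT was 0.17 and within number 2 it was -2.53, and 24 of its 30 members moved in opposite ways in the pairs. With edgeR 0 of the 30 passed and 0 had an unadjusted p below 0.05, and DESeq2 and limma-voom called 0. What part this played in the results that follow was not tested. Counts given below without a C1 or WT library do not test it either. They leave 1 library in that group, which is assumed to vary like the others.

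Of 17129 genes tested, 507 rose and 697 fell in C1 by edgeR's quasi-likelihood test with the replicate number as a block, at an adjusted p below 0.05. That is 7.03% of the genes, 2.96% higher and 4.07% lower. Every one of the 1204 called genes had the same sign in both pairs, against 63.1% of all genes tested. The block selects for such agreement, so the 2 figures are not independent. Of the called genes, 187 rose and 530 fell by at least 2-fold, and 68 rose and 13 fell by less than 1.5-fold. Both C1 libraries lay outside the range of both WT libraries for 1052 of them. A call favours such separation, and the share over all genes tested is not given here, so the count is only a description. Without any test, 157 genes were at least 2-fold higher and 530 at least 2-fold lower in both pairs, 4.01% of the genes, while 27 were higher by that much in number 1 and lower in number 2, and 19 the reverse. Across genes the differences in the pairs correlated by 0.54, as a description over 17129 genes that share 4 libraries.

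**Figure D1:**
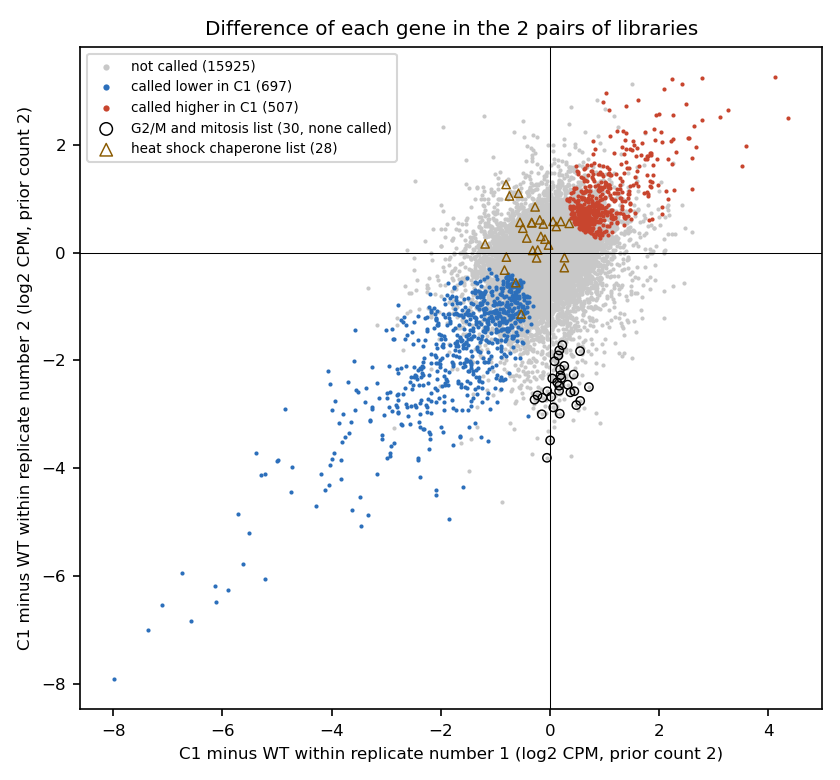
Each point is a gene, placed by the C1 minus WT difference in log2 CPM within replicate number 1 (x axis) and within number 2 (y axis), with called genes coloured, the 30 G2/M genes as black circles and the 28 heat shock chaperones as triangles. Called genes lie in the 2 corners where the pairs have the same sign, the G2/M genes fall below 0 on the y axis and near 0 on the x axis, and 17 of the 28 chaperones are below 0 in number 1 and above 0 in number 2.

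These counts rested on the block and on the C2 libraries. Without the block edgeR called 2 genes, both lower, with 1348 genes at an unadjusted p below 0.05. They were AC104389.28, with 202 and 210 counts in WT and 1 in each C1 library, and the non-coding RP11-314O13.1, with 1210 and 880 counts in WT and 6 and 5 in C1, and no member of a stress list was called in that fit. On the 4 libraries of C1 and WT alone, with the block, 58 genes rose and 134 fell, and 57 and 132 of these are among the genes above. That fit has 1 residual degree of freedom, against 2 in the main one. A call lost there does not show that the difference is absent. Leaving out either C2 library in effect repeats that 4-library fit, since the C2 library left is fitted by its own group term. Each stress list then had the same counts of calls, which is no separate check. Of the genes singled out by rule, 15 of 85 called ones kept their call in every fit with the block that tested them. Among them are ALDH1A3, ALDH3A1, ATG9B, CAV1, CREB3L1, CYP24A1, DSP, GPR110, GPX2, GSTA4, IFI27, IFI6, OAS3 and SULT1E1.

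**Figure D2:**
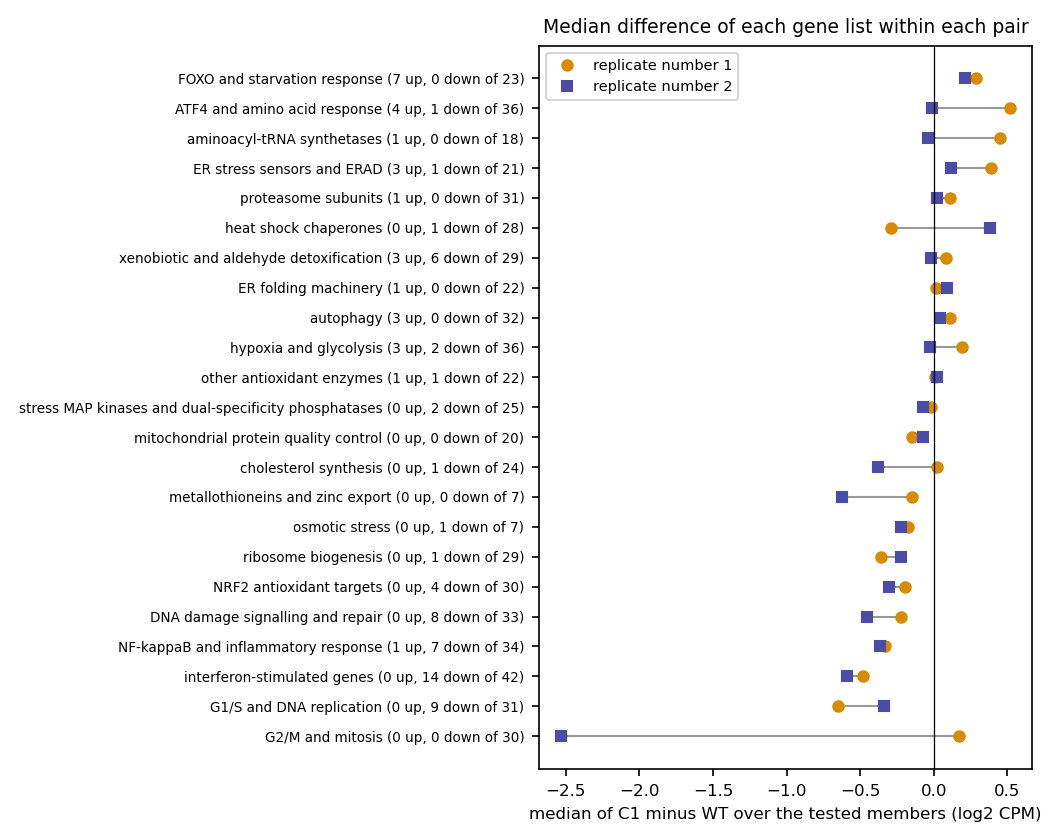
For each of 23 gene lists, the median C1 minus WT difference in log2 CPM over the tested members is shown within replicate number 1 (circles) and number 2 (squares), with the calls of each list in its label. The interferon, NF-kappaB, DNA repair and G1/S lists sit below 0 in both pairs and the FOXO list above 0 in both, whereas the heat shock and G2/M lists lie on opposite sides of 0 in the pairs.

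The amino acid response was higher in C1 in both pairs for a minority of its genes and in number 1 alone for others. Of 36 tested ATF4 and amino acid response genes, 4 rose and 1 fell, 13.9% of the list beside 7.03% of all genes called either way, and the list's median difference was 0.27 in the fit, 0.52 in number 1 and -0.01 in number 2. In all 17 members were above 0 in both pairs, 6 were below 0 in both and 13 were above 0 in number 1 only. SHMT2, the mitochondrial enzyme that takes a carbon from serine into the folate pool, stood at 216 and 282 CPM in WT and 373 and 525 CPM in C1. Both C1 libraries exceeded both WT libraries, and the gene rose by 0.84 on the log2 scale (SE 0.14, adjusted p = 0.0036 by edgeR). VLDLR, a lipoprotein receptor induced by ATF4, stood at 37.1 and 33.9 CPM in WT and 68.1 and 56.8 CPM in C1 and rose by 0.81 (SE 0.17, adjusted p = 0.011). SLC6A9, a glycine transporter, had 16.6 and 36.7 CPM in WT and 31.7 and 65.8 CPM in C1, a rise of 0.89 in which the groups overlap but the pairs agree at 0.93 and 0.84. GDF15, a stress cytokine, had 50.5 and 149 CPM in WT and 104 and 209 CPM in C1 and rose by 0.79 (adjusted p = 0.048).

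ATF4 itself did not pass the test, although its C1 libraries (628 and 575 CPM) lay above its WT libraries (404 and 441 CPM), with a difference of 0.52 (SE 0.15, adjusted p = 0.060). DDIT3, which encodes the death-linked factor CHOP, stood at 22.7 and 83.4 CPM in WT and 41.4 and 52.8 CPM in C1, higher in C1 in number 1 and lower in number 2. MARS1 and MBD6, both with more counts, overlap DDIT3 on the other strand, so its level is uncertain without a strand setting. ASNS, the asparagine synthetase, was chosen after its values were seen. It stood at 83.3 and 216 CPM in WT and 279 and 226 CPM in C1, so it was 1.74 higher on the log2 scale in number 1 and 0.07 higher in number 2. WT replicate 1 thus held the lowest level of both DDIT3 and ASNS. The 1 member that fell was NIBAN1 (listed as FAM129A), with 8.83 and 17.0 CPM in WT and 4.97 and 5.41 CPM in C1. Among 18 aminoacyl-tRNA synthetases, which charge tRNA and include many ATF4 targets, 1 was called, 5.56% beside 7.03% of all genes. MARS1 rose by 0.70 (319 and 597 CPM in WT, 633 and 780 CPM in C1). The median of the synthetases was 0.45 in number 1 and -0.04 in number 2. The number of ATF4 list members called higher was 15 without C1 replicate 2, 2 without C1 replicate 1 and 0 on the 4 libraries alone, and the synthetases had 5, 0 and 0. Members called lower numbered 4 without C1 replicate 1, 2 without WT replicate 1, and 0 without C1 replicate 2, without WT replicate 2 or on the 4 libraries.

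In the ER, few genes were called. Of 22 ER folding genes 1 rose, 4.55% of them beside 7.03% of all genes called either way, and their median difference was 0.06. Of 21 stress sensor and ER-associated degradation (ERAD) genes 3 rose and 1 fell, 19% beside the same 7.03%, and 12 were above 0 in both pairs and 2 below. CREB3L1, an ER membrane factor cut and released in the manner of ATF6, stood at 4.99 and 7.67 CPM in WT and 19.2 and 32.9 CPM in C1. Every C1 library was more than 2-fold above both WT libraries, and CREB3L1 rose by 2.02 (SE 0.22, adjusted p = 0.00015), 1.93 in number 1 and 2.09 in number 2, and also passed on the 4 libraries alone. ATF6B, the close relative of ATF6, had 67.3 and 40.4 CPM in WT and 104 and 102 CPM in C1 and rose by 0.98 (SE 0.18, adjusted p = 0.0060). OS9, a lectin that hands misfolded glycoproteins to ERAD, had 184 and 195 CPM in WT and 250 and 289 CPM in C1 and rose by 0.51 (adjusted p = 0.042).

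DERL3, a channel component of ERAD, fell from 8.57 and 1.62 CPM to 2.80 and 0.668 CPM, and it shares its locus with SMARCB1 on the other strand. The folding gene that rose, ERO1B (listed as ERO1LB), an ER oxidase, was at most 3.87 CPM in any library. HSPA5, the main ER chaperone BiP, was higher in both C1 libraries (1992 and 1636 CPM) than in either WT library (1365 and 1268 CPM), but its difference of 0.46 (SE 0.14, adjusted p = 0.065) did not pass. The sensors ATF6 (0.53), ERN1 (0.04) and EIF2AK3 (0.33) and the effector XBP1 (0.41) did not pass the test either. The 3 ERAD and sensor genes called higher became 1, CREB3L1, on the 4 libraries alone. No member was called lower there or without WT replicate 1. Calls in the folding list were 2 higher without C1 replicate 2 or WT replicate 1 and 0 without WT replicate 2 or on the 4 libraries.

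The NRF2 targets that were called fell. Of 30 tested antioxidant genes of this list 4 fell and 0 rose. That is 13.3% beside 4.07% of all genes called lower and 7.03% called either way. The median was -0.27, and 15 were below 0 in both pairs against 7 above. GPX2, a glutathione peroxidase of epithelia, stood at 6.46 and 11.9 CPM in WT and 1.16 and 0.768 CPM in C1 and fell by 3.16 on the log2 scale (SE 0.36, adjusted p = 0.00024). GCLM, the modifier subunit of the enzyme that starts glutathione synthesis, had 44.2 and 25.0 CPM in WT and 29.8 and 11.8 CPM in C1 and fell by 0.82 (SE 0.18, adjusted p = 0.018). AKR1C2, an aldo-keto reductase, fell by 2.63 from 1.06 and 13.9 CPM to 0.367 and 1.5 CPM, and near-identical AKR1C genes make its counts uncertain.

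The partner subunit GCLC (0.06, chosen after its values were seen), TXNRD1 (0.26) and HMOX1 (0.28) did not pass, nor did NQO1, with 451 and 361 CPM in WT and 375 and 215 CPM in C1 (-0.50, adjusted p = 0.072). GPX2 was among the 2 members of the NRF2 list that passed on the 4 libraries alone. The count of 4 became 9 without C1 replicate 1 and 7 without WT replicate 1, where 1 member was also called higher. NRF2 binds the antioxidant response element, whose core is TGACNNNGC. Within 250 bases before the start of the gene this core, on either strand, was in 6 of 20 NRF2 list genes matched to a RefSeq promoter (30%) and in 11% of 27305 promoters. It is shown in capitals for 2 members that fell, from RefSeq on GRCh38.p14, both read 5′ to 3′ on the gene's minus strand, with the core on the opposite strand. GCLM is at chr1:93909431-93909494 and GPX2 at chr14:64942829-64942897.
GCLM: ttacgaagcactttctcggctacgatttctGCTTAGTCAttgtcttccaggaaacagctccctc
GPX2: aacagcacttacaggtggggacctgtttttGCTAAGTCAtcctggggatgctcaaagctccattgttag
Of matched members, 2 of 3 that fell and 4 of 17 that were not called held the core. These are few genes, and a match is only a description of the letters. CHURC1 overlaps GPX2 on the other strand, and reads of such genes cannot be told apart without a strand setting.

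Detoxification genes changed in both directions. Of 29 tested xenobiotic and aldehyde genes 3 rose and 6 fell, together 31.0% of the list beside 7.03% of all genes, with a median of 0.07. ALDH1A3, which makes retinoic acid from retinal, stood at 197 and 218 CPM in WT and 496 and 478 CPM in C1 and rose by 1.23 (SE 0.15, adjusted p = 0.00036). GSTA4, a glutathione transferase for lipid aldehydes, had 33.9 and 44.3 CPM in WT and 77.0 and 95.4 CPM in C1 and rose by 1.14. SULT1E1, the estrogen sulfotransferase, had 1.66 and 3.43 CPM in WT and 8.51 and 12.8 CPM in C1 and rose by 2.15. All 3 lay above WT in both C1 libraries.

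The largest fall in that list was in CYP24A1, the enzyme that inactivates vitamin D, at 11.6 and 14.4 CPM in WT and 1.70 and 1.54 CPM in C1 (-3.02, SE 0.33, adjusted p = 0.00018). ALDH3A1, an aldehyde dehydrogenase of the airway and cornea, fell by 2.31 from 12.5 and 4.11 CPM to 2.37 and 0.868 CPM. AHRR, the repressor of the aryl hydrocarbon receptor, fell by 1.29, and its locus overlaps PDCD6. SULT1A1 (-1.99) and GSTM2 (-1.24) belong to families of near-identical genes and are uncertain. CYP1B1, a target of that receptor, fell by 0.94, with 122 and 329 CPM in WT and 90.8 and 120 CPM in C1. GSTM2 and CYP1B1 complete the list of calls and were named after their values were seen. On the 4 libraries alone all 3 rises and 2 of the falls, CYP24A1 and ALDH3A1, passed. Of 22 other antioxidant enzymes GPX8 rose by 0.73 and SELENOP (listed as SEPP1) fell by 1.09, 9.09% beside 7.03% of all genes. PRDX5 (0.02), PRDX6 (-0.06) and GPX4 (-0.11) did not pass. Neither call of this list held on the 4 libraries. GPX8 was not called without C1 replicate 1, nor SELENOP without C1 replicate 2 or either WT library.

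**Figure D3:**
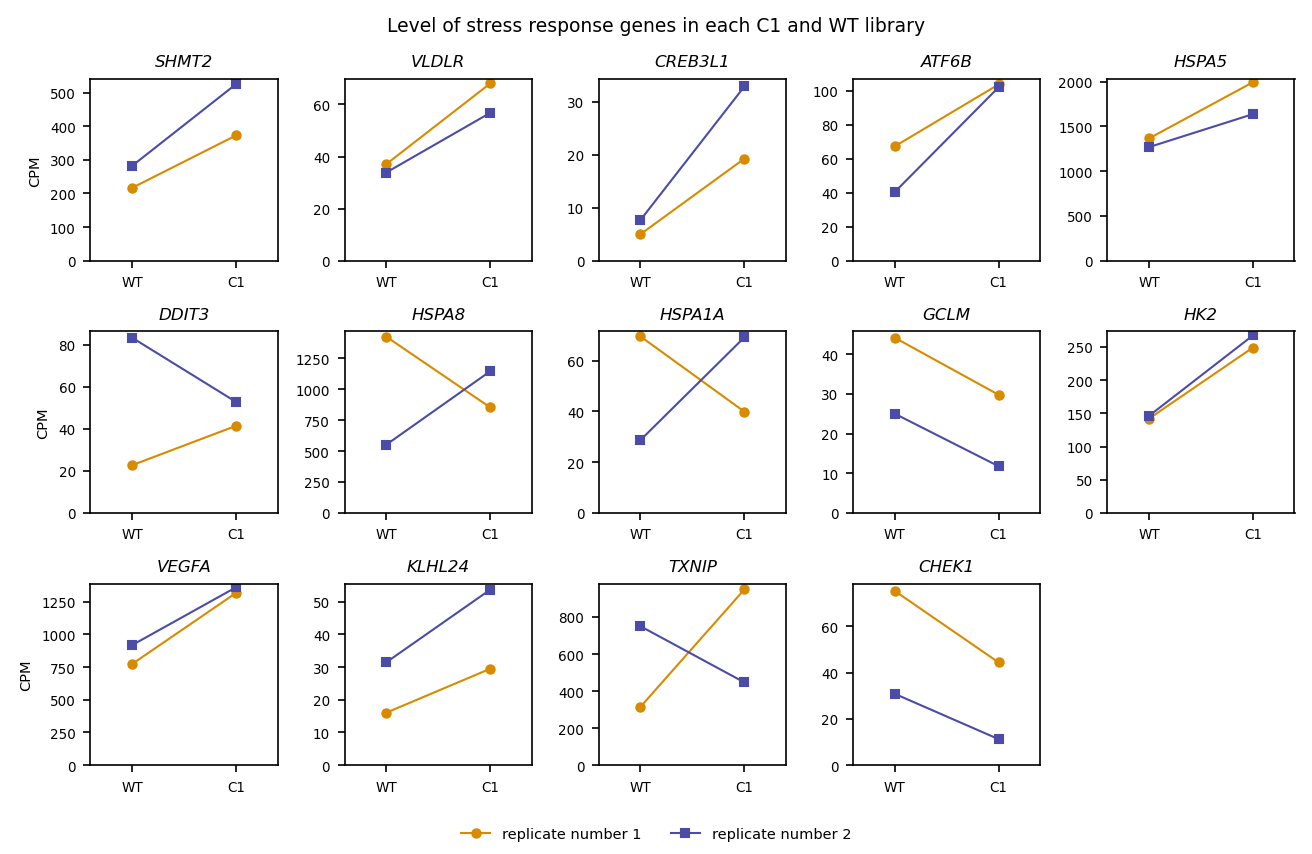
Level in CPM (y axis, from 0) of 14 stress response genes in the WT and C1 libraries, with a line joining the libraries of replicate number 1 (circles) and of number 2 (squares). SHMT2, CREB3L1, HK2 and KLHL24 rise and GCLM and CHEK1 fall along both lines, while the lines cross for HSPA8, HSPA1A and TXNIP and slope in opposite ways for DDIT3.

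The cytosolic chaperones moved in opposite ways in the pairs. Of 28 heat shock genes 17 were lower in C1 within number 1 and higher within number 2, 2 the reverse, and 9 had 1 sign in both. The list's median was -0.29 in number 1 and 0.38 in number 2, and its summed level was 10095 and 6039 CPM in WT and 8511 and 8509 CPM in C1. The C1 libraries were thus nearly equal in sum, and the WT libraries lay on either side of them. HSPA8, the constitutive HSP70, stood at 1425 and 551 CPM in WT and 853 and 1145 CPM in C1. HSPA1A, the inducible HSP70, had 69.6 and 28.7 CPM in WT and 39.9 and 69.2 CPM in C1, and HSPA1B, its near-identical copy, named after its values were seen, had 121 and 57.6 CPM in WT and 81.1 and 124 CPM in C1. Their fitted differences of 0.20, 0.19 and 0.24 have SEs of 0.57, 0.65 and 0.47. The 1 called gene, 3.57% of the list beside 7.03% of all genes, was HSPA4L, an HSP110-type chaperone. It fell by 0.59 (SE 0.15, adjusted p = 0.035 by edgeR), by 0.62 in number 1 and 0.56 in number 2. HSF1 was at 148 and 116 CPM in WT and 85.4 and 110 CPM in C1 and did not pass (-0.44). Without C1 replicate 1 the list gave 4 members called higher, without WT replicate 1 it gave 2, and without C1 replicate 2 it gave 4 called lower, without WT replicate 2 it gave 2, and on the 4 libraries alone 0 either way.

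Protein quality control elsewhere showed little. Of 20 mitochondrial chaperones and proteases 0 were called by edgeR, DESeq2 or limma-voom and 1 had an unadjusted p below 0.05 in edgeR, with HSPD1 at -0.15 and HSPA9 at -0.29. Without WT replicate 2 the mitochondrial list had 1 called lower. Of 31 proteasome subunits PSMA3 alone rose, by 0.59, which is 3.23% of the list beside 7.03% of all genes called either way. PSMA3-AS1 overlaps PSMA3. That call was absent without C1 replicate 2, without WT replicate 1 and on the 4 libraries, and a count of 2 was reached without WT replicate 2. Of 25 stress MAP kinases and their phosphatases 2 fell, 8% beside that 7.03%. MAP3K20 (listed as MLTK), a kinase that senses stalled ribosomes, fell by 0.80. DUSP10, a phosphatase of JNK and p38, fell by 0.58, and both had the same sign in both pairs. No member of that list was called without C1 replicate 2 or on the 4 libraries, and 1 without WT replicate 2. The 7 tested metallothionein and zinc genes gave 0 calls in edgeR, DESeq2 and limma-voom. In edgeR 4 of the 7 had an unadjusted p below 0.05, beside 3649 of all 17129 genes tested. MT2A was at -0.51 and MTF1, the zinc sensor, at 0.01. The osmotic list of 7 gave only HSPA4L, which was not called without C1 replicate 2, without WT replicate 2 or on the 4 libraries, and 2 called without WT replicate 1. That 1 call was 14.3% of the osmotic list beside 7.03% of all genes, and NFAT5, the osmotic regulator, was at -0.22.

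Genes of DNA repair and of DNA replication were among those that fell. Of 33 damage signalling and repair genes 8 fell and 0 rose. That is 24.2% of the list beside 4.07% of all genes called lower and 7.03% called either way. The median was -0.32, and 21 were below 0 in both pairs. CHEK1, the checkpoint kinase, stood at 75.3 and 30.8 CPM in WT and 44.4 and 11.2 CPM in C1 and fell by 1.10 (SE 0.19, adjusted p = 0.0038). FANCA, of the interstrand crosslink repair complex, had 71.2 and 14.6 CPM in WT and 36.3 and 6.75 CPM in C1 and fell by 1.04 (SE 0.17, adjusted p = 0.0031). BRCA2 (-1.07), which acts in homologous recombination, fell as well. XRCC2, BRCA1, H2AX (listed as H2AFX) and ATM, named after their values were seen, were also among the 8, at -0.96, -0.82, -0.79 and -0.58. In 7 of the 8 the groups overlap, since replicate 2 was lower than replicate 1 in WT too, and only in ATM did both C1 libraries lie below both WT libraries.

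The non-homologous end joining genes PRKDC (-0.33), XRCC5 (-0.04) and XRCC6 (0.16) did not pass. Of 31 G1/S and DNA replication genes 9 fell and 0 rose, 29% beside that 4.07% and 7.03% called either way. The median was -0.54, with sums of 3025 and 873 CPM in WT and 2073 and 773 CPM in C1. GINS2, of the replicative helicase, fell by 1.41 from 43.8 and 8.14 CPM to 12.5 and 4.18 CPM. TK1 (-1.16), CCNE1 (-1.08) and MCM10 (-1.01) followed, and CDT1, E2F2, CDC45, CDC6 and TYMS were the rest of the 9. The G1/S list's median was below 0 in both pairs (-0.65 and -0.34), unlike that of the G2/M list, and both lists had lower sums in replicate 2 of each group. Repair calls were 5 without C1 replicate 2 and 0 on the 4 libraries, and replication calls ranged from 8 to 13 without a C1 or WT library and were 0 on the 4, with 1 member called higher without C1 replicate 1 and 2 without WT replicate 1. CHEK1, H2AX and ATM lie on chromosome 11 beyond BRMS1. From BRMS1 to the end, 299 tested genes with a mean log2 CPM above 2 had a median difference of -0.37. The genes before BRMS1 above that level had a median of -0.02. Several of these genes share a locus with another gene, among them CHEK1 with STT3A, FANCA with ZNF276 and GINS2 with GSE1.

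Hypoxia and glycolysis genes gave 3 rises and 2 falls of 36, 13.9% beside 7.03% of all genes, with a median of 0.01. HK2, the hexokinase bound to mitochondria, stood at 142 and 146 CPM in WT and 249 and 267 CPM in C1 and rose by 0.84 (SE 0.14, adjusted p = 0.0031). VEGFA, the angiogenic growth factor, stood at 773 and 918 CPM in WT and 1318 and 1361 CPM in C1 and rose by 0.67 (SE 0.14, adjusted p = 0.012). For both genes replicates differed little and C1 lay above WT throughout. HIF1A had 718 and 1766 CPM in WT and 1198 and 2314 CPM in C1 and rose by 0.56, a smaller step than that between the WT libraries. SLC2A3, the glucose transporter GLUT3, fell by 2.09 from 4.19 and 8.65 CPM to 1.41 and 1.34 CPM, and ENO2, the neuronal enolase, fell by 0.74 from 37.5 and 33.4 CPM to 24.0 and 18.5 CPM. The glycolytic genes ENO1 (0.09), PKM (-0.07) and ALDOA (-0.06) did not pass, and CA9, a HIF marker named after its values were seen, had at most 5 counts in a library. Calls were 5 higher and 1 lower without C1 replicate 2, and 0 either way on the 4 libraries.

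The HIF core ACGTG, on either strand, was within 250 bases before the start in 15 of 32 matched genes of the hypoxia list (46.9%) and in 18.7% of all promoters. It is shown for HK2, which rose, and ENO2, which fell, to set side by side 2 members with the core and opposite changes. Both are RefSeq sequence on GRCh38.p14, plus strand, HK2 at chr2:74834049-74834113 with the core on the minus strand and ENO2 at chr12:6914432-6914496 with the core on the plus strand, in capitals.
HK2: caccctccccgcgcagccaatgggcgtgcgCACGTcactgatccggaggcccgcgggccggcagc
ENO2: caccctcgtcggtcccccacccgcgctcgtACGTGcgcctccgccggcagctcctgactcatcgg
LRRC23 overlaps ENO2 on the same strand.

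The FOXO and starvation list had the most genes called higher of the stress lists, and none called lower. Of its 23 tested members 7 rose and 0 fell. That is 30.4% of the list beside 2.96% of all genes called higher and 7.03% called either way. The median was 0.31 in the fit, 0.29 in number 1 and 0.21 in number 2. INSR, the insulin receptor, rose by 1.25 from 1.41 and 2.09 CPM to 3.90 and 4.31 CPM. KLHL24, an adaptor of a ubiquitin ligase, had 16.1 and 31.5 CPM in WT and 29.5 and 53.7 CPM in C1 and rose by 0.82 (SE 0.17, adjusted p = 0.0097). TP53INP2, an autophagy scaffold, rose by 0.81 from 21.6 and 44.3 CPM to 39.8 and 73.8 CPM. TP53INP1, an autophagy and stress protein gene, had 13.3 and 24.3 CPM in WT and 20.6 and 71.9 CPM in C1 and rose by 1.09 (adjusted p = 0.015). NCOA6 overlaps TP53INP2 and NDUFAF6 overlaps TP53INP1, both on the other strand, and their reads cannot be told apart. ERBB3 (0.77), FBXO32 (0.77) and BCL6 (0.55), named after their values were seen, were the others, and ERBB3 had 168 and 231 CPM in WT and 295 and 380 CPM in C1.

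In KLHL24, TP53INP1, TP53INP2, FBXO32 and BCL6 replicate 2 exceeded replicate 1 in both groups, so the groups overlap while the pairs agree in sign. The pairs of TP53INP1 lay apart, at 0.63 and 1.56. TXNIP, the glucose-sensing arrestin, parted the pairs, at 315 and 750 CPM in WT and 949 and 447 CPM in C1. FOXO3 itself was at 0.04. Without C1 replicate 1 the list gave 3 called higher and 2 lower, without C1 replicate 2 it gave 9 higher, and on the 4 libraries 0. Among 32 autophagy genes 3 rose and 0 fell, 9.38% beside 2.96% of all genes called higher and 7.03% called either way. ATG9B, which carries membrane to the growing autophagosome, stood at 13.3 and 20.7 CPM in WT and 42.7 and 72.5 CPM in C1 and rose by 1.75 (SE 0.17, adjusted p = 5.1e-05), and it passed on the 4 libraries, but NOS3 overlaps it on the other strand and its reads cannot be told apart. ULK1, the kinase that starts autophagy, had 65.9 and 85.0 CPM in WT and 94.8 and 167 CPM in C1 and rose by 0.74, and ATG14 rose by 0.59. The receptors SQSTM1 (-0.20), NBR1 (0.29) and TAX1BP1 (0.25) did not pass. Autophagy calls were 1 without WT replicate 2 and on the 4 libraries.

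Among interferon-stimulated genes the calls were all falls. Of 42 tested members 14 fell and 0 rose. That is 33.3% of the list beside 4.07% of all genes called lower and 7.03% called either way. In all 32 were below 0 in both pairs against 3 above. The median was -0.50, with -0.48 in number 1 and -0.59 in number 2, beside -0.01 over all genes. The summed level was 5212 and 3587 CPM in WT and 3505 and 2965 CPM in C1, so it was also lower in replicate 2 than in replicate 1. IFI27, a mitochondrial protein gene much used as an interferon reporter, stood at 225 and 96.6 CPM in WT and 28.5 and 6.81 CPM in C1 and fell by 3.38 (SE 0.21, adjusted p = 4.0e-06). IFI6 stood at 151 and 85.0 CPM in WT and 27.1 and 11.9 CPM in C1 and fell by 2.63 (SE 0.23, adjusted p = 7.7e-05). In both genes the higher C1 library was below the lower WT library. OAS3, which makes the 2-5A signal that activates RNase L, had 355 and 150 CPM in WT and 143 and 73.0 CPM in C1 and fell by 1.18 (SE 0.15, adjusted p = 0.00048).

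TRIM22 (-1.91) and XAF1 (-1.90) fell too, the first with reads that may belong to TRIM5. Others of the 14, named after their values were seen, were MX1 (-1.83), ISG15 (-1.81), CMPK2 (-1.53), IFIT1 (-1.52), RSAD2 (-1.40), IRF7 (-1.32), IFI44L (-1.02) and OAS1 (-0.56). MX1, a GTPase that blocks viral ribonucleoproteins, had 92.2 and 41.8 CPM in WT and 23.7 and 12.9 CPM in C1, and ISG15, a ubiquitin-like protein gene, 152 and 67.8 CPM in WT and 37.8 and 22.3 CPM in C1. The members LGALS3BP (-0.06), PARP14 (-0.15) and IFITM3 (-0.41) did not pass, and neither did IFI44 (-0.49), named after its values were seen. On the 4 libraries 7 passed, which were IFI27, IFI6, MX1, ISG15, CMPK2, RSAD2 and OAS3, and without a C1 or WT library the count called lower ranged from 13 to 21, with 1 called higher without WT replicate 1.

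Interferon-stimulated genes are known to be switched on through the interferon-stimulated response element, searched as GAAA, any 2 bases and GAAA again, on both strands. It was within 250 bases before the start in 18 of 31 matched members (58.1%) and in 3.07% of all promoters. Of 11 matched members that fell 6 held it, and of 20 that were not called 12 did, so the letters did not part the 2 sets. The windows of those 6 that fell are given to show the element where its genes were lower. They come from RefSeq on GRCh38.p14, read on the gene's strand with matches to either strand in capitals. They are ISG15 at chr1:1013360-1013429, IFI27 at chr14:94110611-94110680, IFI44L at chr1:78620345-78620414, IFIT1 at chr10:89392490-89392559 and OAS3 at chr12:112938432-112938473 on the plus strand, and IFI6 at chr1:27672246-27672315 on the minus strand.
ISG15: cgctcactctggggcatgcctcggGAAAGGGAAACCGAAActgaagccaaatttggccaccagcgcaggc
IFI27: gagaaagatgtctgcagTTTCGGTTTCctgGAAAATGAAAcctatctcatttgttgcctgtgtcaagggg
IFI6: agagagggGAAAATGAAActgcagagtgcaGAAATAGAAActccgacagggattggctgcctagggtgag
IFIT1: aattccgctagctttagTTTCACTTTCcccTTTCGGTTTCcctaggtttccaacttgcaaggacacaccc
IFI44L: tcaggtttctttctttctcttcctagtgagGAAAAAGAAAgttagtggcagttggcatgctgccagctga
OAS3: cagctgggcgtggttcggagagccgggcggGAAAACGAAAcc
ISG15, IFI27, IFI6 and IFIT1 hold more than 1 match in these windows, overlapping in ISG15, and IFI44L and OAS3 hold 1.

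**Figure D4:**
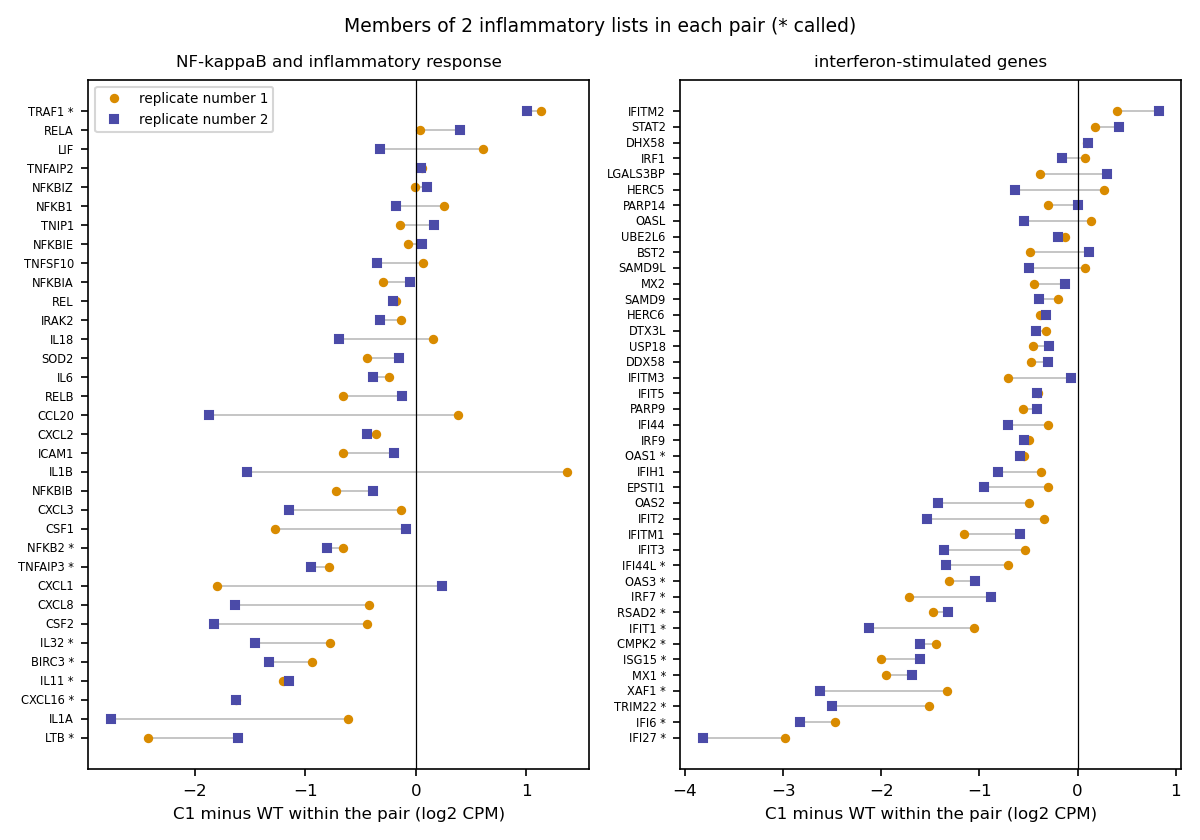
For members of the NF-kappaB and interferon lists, the C1 minus WT difference in log2 CPM is shown within replicate number 1 (circles) and number 2 (squares), ordered by the fitted difference, with called genes starred. Most members of both lists lie below 0 in both pairs, and IFI27 and IFI6 lie lowest among the interferon-stimulated genes.

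The NF-kappaB and inflammatory list held 7 falls and 1 rise among 34 tested members, 23.5% of the list beside 7.03% of all genes called either way. In all 21 were below 0 in both pairs against 3 above, and the median was -0.41. BIRC3, an apoptosis inhibitor induced by NF-kappaB, stood at 26.4 and 24.2 CPM in WT and 13.7 and 9.59 CPM in C1 and fell by 1.14 (SE 0.21, adjusted p = 0.0061), and it lies in the lowered stretch of chromosome 11. IL11, a cytokine of the IL-6 family, had 5.88 and 6.36 CPM in WT and 2.52 and 2.84 CPM in C1 and fell by 1.19 (adjusted p = 0.019). CXCL16 (-1.75) was under 1.6 CPM in every library and overlaps MED11, and LTB had 23 and 10 counts in WT and 3 and 2 in C1, too few for a fold. IL32 (-1.13), TNFAIP3 (-0.88) and NFKB2 (-0.73), named after their values were seen, complete the falls. TRAF1, an adaptor of TNF receptors, rose by 1.07 (SE 0.19, adjusted p = 0.0041) from 13.0 and 10.5 CPM to 28.5 and 21.1 CPM. The factors RELA (0.22) and NFKB1 (0.03) did not pass. The count of 7 was 4 without C1 replicate 2 and 0 on the 4 libraries, where TRAF1 did not pass either.

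Beyond the strongest changes, well-expressed genes with a similar change in both pairs were taken by rule. Their agreement between pairs is thus a condition of the rule and not a result. Of the 1204 called genes, 530 had pairs within 0.3 of each other. The rule took called protein-coding genes with a mean log2 CPM of at least 5, a log2 difference between 0.5 and 2 in size and pairs within 0.3 of each other, and 192 rose and 51 fell. The 10 risers with the highest CPM, a scale that is not per length, were MT-CO3, EEF1A1, APP, PSAP, VEGFA, NT5E, CRABP2, CAPN2, PYGB and GPR110, with differences from 0.54 to 1.10. GPR110, an adhesion receptor, stood at 467 and 364 CPM in WT and 965 and 806 CPM in C1 and rose by 1.10 (SE 0.15, adjusted p = 0.00073). NT5E, the surface enzyme CD73 that makes adenosine, had 865 and 738 CPM in WT and 1441 and 1301 CPM in C1 and rose by 0.78. PSAP, the precursor of lysosomal saposins, had 598 and 1107 CPM in WT and 989 and 2032 CPM in C1 and rose by 0.80. CRABP2, which carries retinoic acid to its receptor, had 665 and 816 CPM in WT and 1121 and 1396 CPM in C1 and rose by 0.76. EEF1A1, with its many pseudogenes, and MT-CO3, which overlaps MT-ATP6, are uncertain.

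Among the 10 with the highest CPM that fell were FLNA, PEG10, OAS3, CAV1, CPE, TCOF1, USP10, DSP and DGKD, from -0.53 to -1.18. FLNA, an actin crosslinker, stood at 1632 and 1317 CPM in WT and 996 and 810 CPM in C1 and fell by 0.71, with pairs at -0.71 and -0.70. CAV1, the coat protein of caveolae, had 328 and 151 CPM in WT and 159 and 63.7 CPM in C1 and fell by 1.15 (SE 0.16, adjusted p = 0.00080). DSP, the desmosome linker desmoplakin, had 171 and 146 CPM in WT and 86.7 and 64.0 CPM in C1 and fell by 1.08 (SE 0.18, adjusted p = 0.0047). CAV1, DSP and GPR110 kept their calls on the 4 libraries. TCOF1 and USP10 act in ribosome production and in stress granules, and had -0.60 and -0.53.

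At the other end, 46 genes were at least 2-fold apart in opposite ways in the pairs, and 1 of them was protein-coding with a mean log2 CPM of at least 3. It was PADI3, which converts protein arginine to citrulline, at 25.0 and 59.6 CPM in WT and 60.7 and 25.8 CPM in C1. Together with HSPA8, TXNIP and DDIT3 it shows a C1 difference that turned with the replicate number.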

How the data were processed

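The table used is the authors' deposited raw read counts per gene, 1 column for each of 6 libraries with 57445 genes. HTSeq's own summary rows were dropped. Tools named in the submitters' processing notes are HTSeq 0.5.3, STAR 2.5.0a and cutadapt 1.6, with build hg19. Strand setting and annotation release are not given in the sources used here. Between 78.2% and 78.7% of listed reads of WT and C1 were in genes.

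Counts were analysed with edgeR 4.0.16 in R 4.3.3. Genes were filtered by filterByExpr (minimum count 10), libraries scaled by TMM, and C1 compared with WT by the robust quasi-likelihood F test, with group and replicate number as terms (2 residual degrees of freedom). P-values were adjusted by Benjamini-Hochberg over 17129 genes. Log2 CPM values used a prior count of 2. The steps were tested on simulated data. DESeq2 1.42.0 and limma-voom (limma 3.58.1) were alternatives, with other filters and scalings and each library left out.

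Replicate numbers were checked as pairs: deviations of same-numbered libraries from their group means correlated by 0.584 for C1 with WT, by 0.634 for C2 with WT and by 0.701 for the clones. The evidence for pairing comes from these data alone, and with 2 libraries a group it can arise from 1 dominant source of variation. Replicates were not copies, with a chi-square per gene of 90.7 in WT and 119 in C1.

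Gene lists, the comparison and its pairing were chosen with earlier results of these data known. Named by rule were BRMS1, up to 4 called members each way per list, up to 3 uncalled members of highest CPM, each list's regulator, the 10 steady genes each way, and genes opposite in the pairs. Others are marked as chosen after their values were seen, or complete a list of calls. Overlapping genes came from GENCODE 29 and promoters from RefSeq. Some genes and 1 list that these rules name are not reported here.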

Additional observations from a re-analysis of the deposited data

How the results depend on the processing

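Under other settings the 507 genes called higher and 697 lower became 0 and 2 without the replicate block, 58 and 134 on the C1 and WT libraries alone, 83 and 187 with DESeq2 and no block, 878 and 1196 with no low-count filter (30735 genes tested), and 333 and 369 with a stricter filter (12890 tested). Leaving out 1 library gave 60 to 701 higher and 130 to 978 lower, and the lowest counts came without C2 replicate 1 (60 and 131) and without C2 replicate 2 (60 and 130). The fits without a C2 library in effect repeat the fit on the C1 and WT libraries alone and are no separate settings. The C2 library left is fitted by its own group term. Where the C1 or WT arm is left with 1 library, that library is assumed to vary like the others. DESeq2 size factors in edgeR gave 500 and 693, DESeq2 with the block 531 and 627, and limma-voom 508 and 700. The share of calls that were higher was 42.1% in the main test, and 30.2% on the 4 libraries. Every called gene that a setting tested kept its sign in all of these settings. All 1204 already had the same sign in both pairs, so few signs could have turned and this is no separate check. Genes at least 2-fold lower in both pairs numbered 797 with no filter against 530. With a mean log2 CPM of at least 1 they numbered 168, and those at least 2-fold higher 83 against 157. Genes 2-fold apart in opposite ways numbered 46, and 70 with a prior count of 0.5, 18 with a prior count of 5, 152 with no filter and 4 with that minimum level. In 4 genes with opposite pairs a call was made only with a library left out, and its sign turned with the library. DDIT3 was -0.61 without WT replicate 1 and 0.82 without WT replicate 2. TXNIP was -0.69 without C1 replicate 1 and 1.54 without C1 replicate 2, PADI3 -1.30 and 1.37, and HSPA8 0.91 and -0.61. Of 85 called named genes, 70 lost the call without either C2 library and 85 without the block. Causes were not tested. Depth limits the genes under about 1 CPM, where 3 counts are 0.0848 to 0.101 CPM.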

Other observations

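Some markers of lung and other cell types differed between C1 and WT, and others were not called. Calls were 9.09% of 11 epithelial, 28.6% of 7 lung and 25% of 4 fibroblast markers tested, beside 7.03% of all genes. They were 66.7% of 3 endothelial and 0% of 4 immune markers. KRT7 (0.22), KRT8 (0.36), KRT18 (0.45), NKX2-1 (0.07), FOXA2 (0.18), LAMP3 (-0.31), COL1A1 (0.09) and LUM (-0.41) did not pass. ELF3, an epithelial transcription factor, stood at 152 and 229 CPM in WT and 253 and 332 CPM in C1 and rose by 0.64 on the log2 scale (SE 0.14, adjusted p = 0.017 by edgeR). ABCA3, the lipid transporter of surfactant-making cells, had 3.61 and 20.9 CPM in WT and 5.23 and 59.1 CPM in C1 and rose by 1.06, with the replicate 2 libraries highest in both groups. NAPSA, the aspartic protease of the same cells, fell by 1.04 from 6.08 and 8.21 CPM to 3.02 and 3.87 CPM, and NR1H2 overlaps it. KDR, the receptor for VEGFA, had 7.45 and 18.6 CPM in WT and 15.1 and 38.3 CPM in C1 and rose by 1.03 (SE 0.21, adjusted p = 0.0099), with pairs at 1.01 and 1.04. CDH5, a cadherin of vessels, rose by 1.82 on 33 and 10 counts in WT and 82 and 73 in C1, while VWF (-0.66) did not pass, and these 3 were the endothelial markers tested. COL3A1, a fibrillar collagen gene, was called lower on 12 and 77 counts in WT and 3 and 2 in C1. None of these calls held on the C1 and WT libraries alone.

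Growth-related lists gave few calls, 3.45% of the ribosome biogenesis list and 4.17% of the cholesterol list beside 7.03% of all genes. Of 29 ribosome biogenesis genes 1 fell, TCOF1, while 22 were below 0 in both pairs against 2 above, and the median was -0.26. NCL, the nucleolar protein nucleolin, had 1236 and 769 CPM in WT and 951 and 606 CPM in C1 and did not pass (-0.36). Of 24 cholesterol genes 1 fell, LSS, the lanosterol synthase, by 0.70 from 92.0 and 89.7 CPM to 53.7 and 58.7 CPM, and the list gave 6 called lower without C1 replicate 1 and 3 without WT replicate 2. All 13 mitochondrially encoded mRNAs were tested and MT-CO3 rose, 7.69% of the list beside 7.03% of all genes. Their sum was 67210 and 39659 CPM in WT and 78207 and 53822 CPM in C1, higher in C1 within each number and lower in replicate 2 within each group.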
